A study of Mus musculus with 6 samples.

Results

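The STAT transcription factors and the SOCS inhibitors are the output and the brake of cytokine signalling through JAK kinases. Their transcripts were measured in mouse bone marrow-derived macrophages given 10 µg of K7M2 osteosarcoma vesicles for 24 h (the K7M2-EV group) or PBS (the PBS group). K7M2 is a mouse osteosarcoma cell line, and extracellular vesicles are membrane-bound particles that cells release. The 9 genes described were picked by symbol: the STAT genes Stat2, Stat3, Stat5a, Stat5b and Stat6, and the SOCS family genes Socs1, Socs2, Socs3 and Cish. All 9 had a row among the 26835 genes kept, and other STAT genes were not analysed here.

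All macrophages came from wild-type BALB/C mice aged 5 to 8 weeks, and in both groups marrow cells had first grown for 6 days in M-CSF (25 ng/ml) with 10% heat-inactivated serum. Each group held 3 libraries, labelled as biological replicates. PBS was the only control, so K7M2 vesicles and vesicles in general cannot be told apart, and M-CSF, itself a cytokine, is common to all 6 libraries. Values are FPKM, fragment counts scaled to gene length and library size, and the spacing of low values implied 21335200 to 25697600 reads per library.

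All 12 macrophage markers examined were expressed, with a summed level of 13475 to 14995 FPKM in K7M2-EV libraries and 4754 to 5791 FPKM in PBS libraries. Lymphocyte lists were lower with vesicles. The T cell list (3 of 6 with values) summed to 0 to 0.0845 FPKM with vesicles and 1.65 to 2.22 FPKM with PBS, mostly Cd28. The B cell list (5 of 6) summed to 1.45 to 2.94 FPKM with vesicles and 9.33 to 11.8 FPKM with PBS, mostly Ighm. Their defining members Cd3d and Cd79a stayed at or below 0.0632 FPKM in every library. Mesenchymal markers (12 of 12 with values) stood highest in replicate 2 of both groups, at 756 FPKM summed in K7M2-EV replicate 2 and 519 FPKM in PBS replicate 2. The other libraries held 279 and 293 FPKM with vesicles and 216 and 255 FPKM with PBS. In bulk RNA, a change in the number of cells of a type and a change in RNA per cell cannot be told apart.

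When a cytokine binds its receptor, JAK kinases on the receptor tails phosphorylate STAT proteins, which pair up, enter the nucleus and bind DNA. STAT3 carries signals of the interleukin-6 and interleukin-10 families, STAT5A and STAT5B those of colony-stimulating factors, STAT6 that of interleukin-4, and STAT2 joins IRF9 in the interferon-activated complex ISGF3. SOCS proteins are feedback inhibitors: many are transcribed in response to STATs and then block the kinases, mask receptor sites or send bound proteins for degradation through their SOCS box. Activation of STATs is by phosphorylation, which transcript levels do not measure.

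Socs3 and Socs1 rose by far more than any of the 5 STAT genes analysed. With vesicles Socs3 became the most abundant of the 9 transcripts and overtook Stat6, while Socs2 and Cish stayed at or below 0.329 FPKM in both groups. Stat2, Stat3 and Stat5a rose by smaller amounts, and Stat5b and Stat6 fell slightly. All 7 genes that passed the filter for low values were called, 5 higher and 2 lower, against 54% of the 13009 genes tested (18.4% higher and 35.6% lower; limma, adjusted p under 0.05). Socs1 and Socs3 passed that filter (1 FPKM in 3 libraries) through their K7M2-EV libraries, so the count of 7 of 7 is a description. Library values were fully separated between groups in all 7, as in 63.8% of the genes tested. With vesicles 5 members lay wholly above PBS (21.8% of the genes tested) and 2 wholly below (42%).

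**Figure D1:**
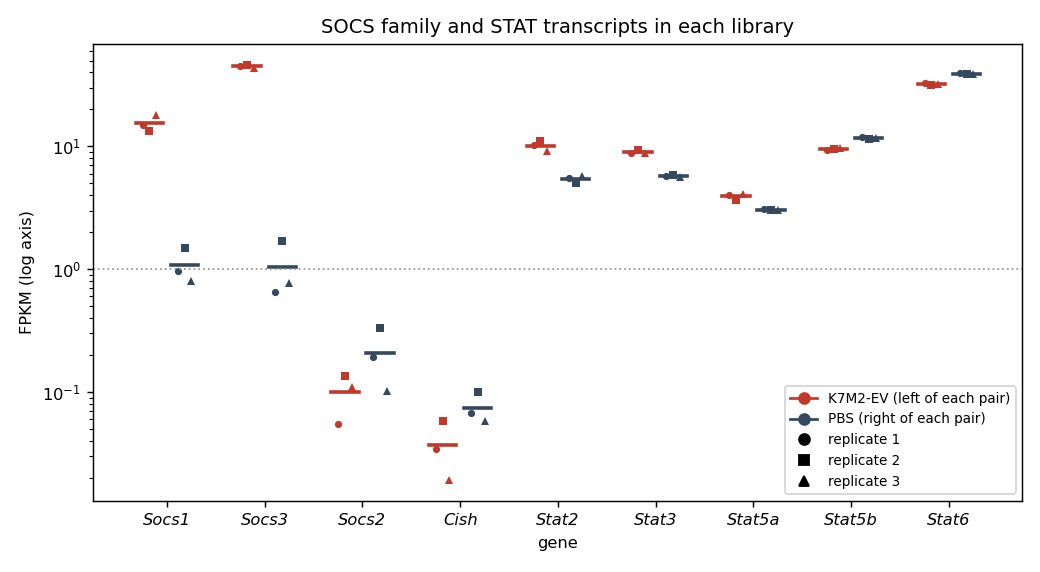
FPKM of the 9 genes in each library on a log axis. Points are libraries with 1 symbol per replicate, short lines are group means, K7M2-EV in red on the left and PBS in dark grey on the right of each pair. The dotted line is 1 FPKM. Socs1 and Socs3 sit at 13.5 FPKM or more with vesicles and at 1.71 FPKM or less with PBS, whereas the STAT genes shift by less than 2-fold.

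Socs3 encodes the inhibitor that binds receptors such as gp130 together with their JAK kinase and limits STAT3 signalling. Its libraries held 44.8, 46.3 and 43.5 FPKM in the K7M2-EV group, against 0.650, 1.71 and 0.770 FPKM in the PBS group. The vesicle libraries lay within a narrow band, while PBS replicate 2 stood above the other PBS libraries. The means of 44.9 ± 1.38 FPKM with vesicles and 1.04 ± 0.581 FPKM with PBS (SD, n = 3 each) differed 43.0-fold. Socs3 spans 117966079 to 117970047 of chromosome 11 (GRCm38, GENCODE M21). The log2 fold change, taken throughout as K7M2-EV over PBS on the log2(FPKM + 1) scale, was 4.52 ± 0.18 (SE; limma, adjusted p = 8.24e-06). It ranked 25th from the top among all genes tested. With vesicles 96.9% of genes were listed below Socs3, and with PBS 51.9%. About 2968 to 3120 reads lay behind each vesicle value and about 41.3 to 106 behind each PBS value, by annotated exon length.

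Socs1 encodes an inhibitor of the kinase domain of several JAK proteins and is best known for restraining interferon signalling. Its values were 15.0, 13.5 and 17.9 FPKM in K7M2-EV libraries, against 0.969, 1.50 and 0.798 FPKM in PBS libraries. Again the groups were far apart and PBS replicate 2 was the highest control. The means were 15.5 ± 2.29 FPKM with vesicles and 1.09 ± 0.365 FPKM with PBS (SD, n = 3 each), a 14.2-fold difference. The log2 fold change was 2.98 ± 0.15 (SE; limma, adjusted p = 2e-05), rank 84 from the top. Within a library Socs3 exceeded Socs1 by 2.99, 3.44 and 2.42 times with vesicles. The same ratio was 0.671, 1.14 and 0.965 with PBS, where the genes were about level.

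PBS replicate 2, the control with the highest SOCS values, was also the control with the highest mesenchymal sum. K7M2-EV replicate 2, the vesicle library with the highest mesenchymal sum, had the highest Socs3 value of its group (46.3 FPKM). Its Socs1 value was the lowest of its group (13.5 FPKM). Without replicate 2 in either group the log2 fold changes were 4.72 for Socs3 and 3.21 for Socs1, both still called. Of the 5 neutrophil markers that passed the filter, 4 rose, where 18.4% of all genes tested were higher. Camp, 1 of the 4, reached 1 FPKM in no PBS library and had to be higher, so the count is a description. The neutrophil list (10 of 11 with values) summed to 75.4 to 89.1 FPKM with vesicles and 11.6 to 17.4 FPKM with PBS. Means with vesicles and with PBS were 39.5 and 3.07 FPKM for S100a8 and 18.2 and 2.03 FPKM for Mmp8. They were 20.3 and 7.11 FPKM for Csf3r and 2.22 and 0.200 FPKM for Camp. S100a9, at 0.517 and 0.783 FPKM, was not called. The defining members Ly6g and Cxcr2 were listed at 0 in all 3 K7M2-EV libraries and at or below 0.155 FPKM with PBS. The part of these cells in the SOCS levels was not tested.

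Socs2 and Cish, both feedback inhibitors known to be induced through STAT5, had lower means with vesicles, with no call. Socs2 was at 0.0546, 0.135 and 0.109 FPKM with vesicles and at 0.193, 0.329 and 0.102 FPKM with PBS. Cish was at 0.0344, 0.0582 and 0.0191 FPKM with vesicles and at 0.0671, 0.0994 and 0.0574 FPKM with PBS. The groups overlapped narrowly for both genes, and replicate 2 was the highest library of each group. Neither passed the filter. In a fit without any filter their log2 fold changes were -0.13 ± 0.08 for Socs2 (SE; limma, adjusted p = 0.256) and -0.05 ± 0.02 for Cish (adjusted p = 0.179). The Cish values rest on about 2.96 to 8.29 reads per vesicle library and 9.47 to 13.6 per PBS library.

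The letters before the transcription start are shown for Socs1, Socs3 and Stat2, because these are the members that rose and hold a match to a searched motif. They are the 250 bases upstream of the RefSeq start (GRCm38.p6), 5′ to 3′ on the gene's strand, with motif matches in capitals. The entries lie at chr16:10785537-10785786 (minus strand) for Socs1, chr11:117969367-117969616 (minus) for Socs3 and chr10:128270248-128270497 (plus) for Stat2.
Socs1: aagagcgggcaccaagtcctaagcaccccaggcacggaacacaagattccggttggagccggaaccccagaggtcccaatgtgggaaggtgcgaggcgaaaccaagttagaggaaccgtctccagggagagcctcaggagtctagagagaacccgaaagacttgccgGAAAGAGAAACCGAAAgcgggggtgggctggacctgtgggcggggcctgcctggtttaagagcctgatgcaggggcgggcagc
Socs3: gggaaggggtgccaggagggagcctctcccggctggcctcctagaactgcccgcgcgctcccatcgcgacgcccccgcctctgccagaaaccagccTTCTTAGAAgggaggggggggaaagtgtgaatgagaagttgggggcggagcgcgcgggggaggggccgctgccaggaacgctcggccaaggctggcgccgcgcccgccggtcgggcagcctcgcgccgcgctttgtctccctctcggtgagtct
Stat2: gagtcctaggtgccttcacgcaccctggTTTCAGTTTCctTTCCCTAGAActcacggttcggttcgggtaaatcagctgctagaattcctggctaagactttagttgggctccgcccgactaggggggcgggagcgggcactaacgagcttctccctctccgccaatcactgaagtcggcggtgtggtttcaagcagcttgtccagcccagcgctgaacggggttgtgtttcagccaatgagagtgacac

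Each window was searched on both strands for 4 motifs. These were the STAT element TTCNNNGAA, the longer form TTCNNNNGAA preferred by STAT6, the interferon-stimulated response element GAAANNGAAA and the kappaB form GGGNNTTTCC. Socs3 held 1 STAT element, 154 to 146 bases before the RefSeq start, a motif found in 7.02% of the 32851 promoters of the table. The Socs3 window, 117969367 to 117969616, lies wholly within the GENCODE M21 span of the gene, 117966079 to 117970047. By that annotation this element is inside the gene and not upstream of it. Socs1 held 2 overlapping response elements, at 83 to 74 and 77 to 68 bases before the start. At least 1 such element occurs in 2.98% of promoters. Stat2 held a response element on the reverse strand, 222 to 213 bases before the start, and the longer STAT form at 210 to 201 bases, a form found in 5.85% of promoters. The kappaB form, in 1.41% of promoters, was in none of the 10 entries of the 8 members that had one. These are letter matches in a short window and say nothing of binding.

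Among the 5 STAT genes analysed, Stat2 changed most. Its values were 10.3, 11.0 and 9.12 FPKM in K7M2-EV libraries, against 5.51, 5.06 and 5.74 FPKM in PBS libraries. Every vesicle library lay above every PBS library. The means of 10.2 ± 0.971 FPKM with vesicles and 5.43 ± 0.347 FPKM with PBS (SD, n = 3 each) gave a log2 fold change of 0.79 ± 0.08 (SE; limma, adjusted p = 0.000325). Its partner in ISGF3, Irf9, was at 5.16, 5.01 and 4.86 FPKM with vesicles and at 3.43, 4.34 and 4.50 FPKM with PBS. The groups did not overlap, yet the log2 fold change of 0.25 ± 0.09 was not called (limma, adjusted p = 0.0608). It was called after median-of-ratios scaling (0.37, adjusted p = 0.0115) and after quantile normalization (0.37, adjusted p = 0.0156), in a range of 0.0115 to 0.197 over 16 alternatives to the log2 fold change of Irf9.

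Stat3 was at 8.90, 9.28 and 8.84 FPKM with vesicles, against 5.77, 5.86 and 5.66 FPKM with PBS. Spread within either group was small beside the distance between them. The means were 9.01 ± 0.236 FPKM with vesicles and 5.76 ± 0.0972 FPKM with PBS (SD, n = 3 each), and the log2 fold change was 0.57 ± 0.05 (SE; limma, adjusted p = 0.000124). Relative to its own inhibitor the order was inverted: the ratio of Socs3 to Stat3 was 5.03, 4.98 and 4.92 in K7M2-EV libraries and 0.113, 0.292 and 0.136 in PBS libraries.

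Stat5a and Stat5b encode closely related factors used by the same receptors, and their transcripts moved in opposite directions. Stat5a was at 4.05, 3.67 and 4.11 FPKM with vesicles, against 3.09, 3.04 and 3.05 FPKM with PBS. Stat5b was at 9.28, 9.45 and 9.64 FPKM with vesicles, against 11.8, 11.6 and 11.7 FPKM with PBS. In neither gene did the groups overlap, although the differences were modest. The log2 fold changes were 0.28 ± 0.06 for Stat5a and -0.28 ± 0.04 for Stat5b (SE; limma, adjusted p = 0.00681 and 0.00195). Stat5b was thus 2.29, 2.58 and 2.35 times Stat5a with vesicles and 3.83, 3.81 and 3.82 times Stat5a with PBS. That ratio is free of any scaling between libraries. Its groups did not overlap (two-sided exact permutation p = 0.1, the smallest that 3 against 3 libraries can give).

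The Stat5 pair lies side by side on chromosome 11 of GRCm38, with Stat5b from 100780731 to 100850724 on the minus strand and Stat5a from 100859351 to 100885169 on the plus strand, 8626 bases apart. Stat3 follows from 100885098 to 100939540 on the minus strand, and its end overlaps that of Stat5a by 72 bases. Whether counting used strand is not stated in the labels or file headers, so reads from that stretch cannot be assigned to either gene. Stat6 likewise shares 40 bases with its neighbour Nab2, and Cish overlaps a pseudogene, Gm17040, not analysed here, and an antisense gene, Gm17041. Gm17041 was at 0.0867, 0.188 and 0 FPKM with vesicles, in part above Cish itself, and was listed at 0 in all 3 PBS libraries. Of all 50-base words in the annotated Stat5a transcripts, 8.21% also occur in Stat5b, and 11.0% of those of Stat5b occur in Stat5a. Reads from that part could be credited to either gene, so each level carries this uncertainty. No other pair among the STAT members, and none among the SOCS members, shared such a word. Words were compared in transcript orientation only, so the 72-base overlap of Stat3 and Stat5a on opposite strands was not counted.

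Stat6 was the most abundant of the 5 STAT transcripts analysed in every library. It was at 32.9, 31.4 and 32.3 FPKM in K7M2-EV libraries, against 39.6, 38.8 and 38.9 FPKM in PBS libraries. The vesicle libraries were all lower. The means were 32.2 ± 0.775 FPKM with vesicles and 39.1 ± 0.431 FPKM with PBS (SD, n = 3 each), and the log2 fold change was -0.27 ± 0.05 (SE; limma, adjusted p = 0.00308). The ratio of Stat6 to Stat3 was 3.69, 3.38 and 3.66 with vesicles and 6.86, 6.63 and 6.87 with PBS.

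The falls of Stat5b and Stat6 were larger than the shift of the whole table but of ordinary size. Over all genes tested the median log2 fold change was -0.12, and relative to it Stat5b changed by -0.16 and Stat6 by -0.16. Of all genes tested, 50.6% changed by more than Stat5b in size and 51.5% by more than Stat6. After median-of-ratios scaling, which brings that median to -0.0024, Stat6 was not called (-0.13, adjusted p = 0.0766, in a range of 0.00234 to 0.0766 over 16 alternatives) and Stat5b was called at -0.14 (adjusted p = 0.0418). Quantile normalization brings the median to -0.0041, and there both were called, with a log2 fold change of Stat6 of -0.34 (adjusted p = 0.00234) and a log2 fold change of Stat5b of -0.24 (adjusted p = 0.00581). Median-of-ratios scaling left the rises of Stat2, Stat3 and Stat5a called, at 0.92, 0.69 and 0.40. Stat5a, in contrast, was not called when the replicate 1 libraries of both groups were left out (0.27, adjusted p = 0.0631) or those of replicate 3 (0.26, adjusted p = 0.0904), in a range of 0.00202 to 0.0904. Leaving out replicate 3 of both groups also ended the call of Stat6 (log2 fold change of Stat6 -0.28, adjusted p = 0.0572).

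Summed over the 5 STAT genes, FPKM without further scaling were nearly the same in both groups. The sums were 65.4, 64.8 and 64.0 FPKM with vesicles and 65.8, 64.3 and 65.0 FPKM with PBS, and they overlapped. The median-of-ratios factors were 0.954, 0.961 and 0.946 for K7M2-EV libraries and 1.04, 1.08 and 1.05 for PBS libraries. Division by them raises the vesicle sums and lowers the PBS sums, so the near equality is that of unscaled values. The composition, which such scaling leaves unchanged, differed. Stat6 made up 50.3%, 48.4% and 50.5% of the sum in K7M2-EV libraries and 60.2%, 60.3% and 59.8% in PBS libraries. The sum over the 4 SOCS members was 59.9, 59.9 and 61.6 FPKM with vesicles and 1.88, 3.64 and 1.73 FPKM with PBS. With vesicles it thus came close to the STAT sum, and nearly all of it was Socs3 and Socs1.

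**Figure D2:**
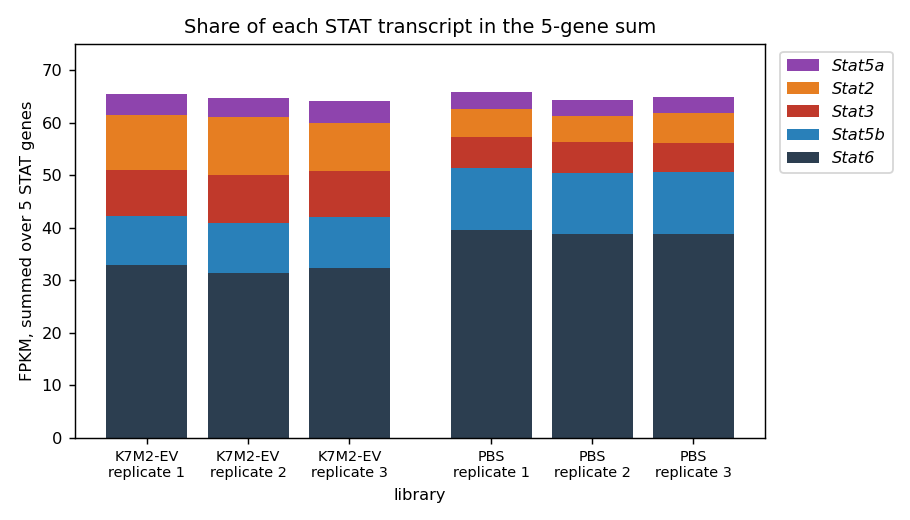
Stacked FPKM of the 5 STAT genes in each library, K7M2-EV libraries on the left and PBS libraries on the right. Without further scaling, total height stays between 64.0 and 65.8 FPKM. The Stat6 and Stat5b blocks are smaller and the Stat3, Stat2 and Stat5a blocks larger with vesicles.

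**Figure D3:**
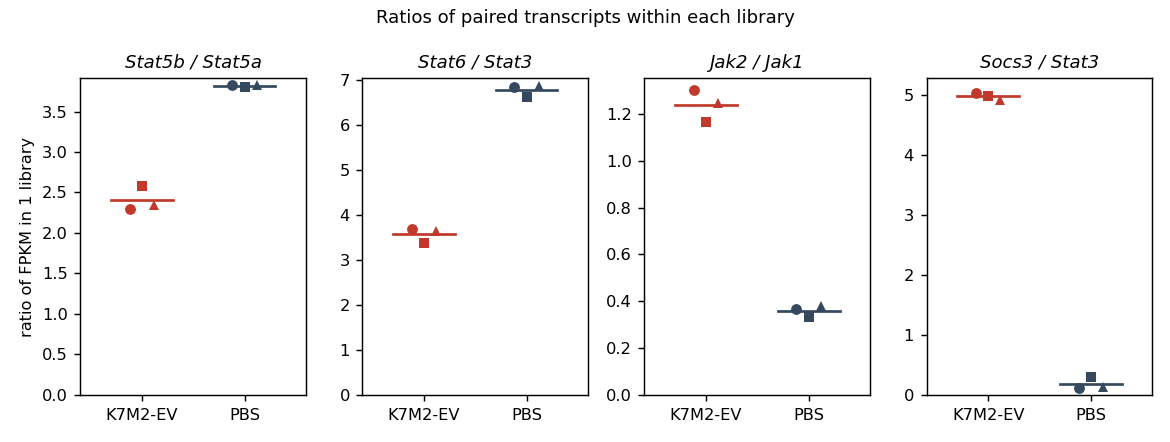
Ratio of FPKM of paired transcripts within each library, with K7M2-EV on the left and PBS on the right of each panel. Points are libraries with 1 symbol per replicate, lines are group means, and each axis starts at 0. The Stat5b to Stat5a and Stat6 to Stat3 ratios are lower with vesicles, and the Jak2 to Jak1 and Socs3 to Stat3 ratios are higher, with no overlap in any panel.

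By level the order of the 9 genes differed between groups. With vesicles it ran Socs3, Stat6, Socs1, then Stat2, Stat5b and Stat3 whose ranges overlapped, then Stat5a, with Socs2 and Cish last and overlapping. With PBS it ran Stat6, Stat5b, then Stat3 and Stat2 with overlapping ranges, Stat5a, then Socs1 and Socs3 with overlapping ranges, Socs2 and Cish. FPKM are per length, so these levels can be set beside each other.

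The transcripts whose pattern over the 6 libraries was most like that of a member were sought among 5336 other genes whose mean was 5 FPKM or more. For Socs3 they were Il4ra, the interleukin-4 receptor chain, and Gpr84, a receptor for medium-chain fatty acids (Pearson r 1.00 each over 6 libraries). For Stat3 they were the interferon-induced genes Ifit1 and Usp18 (r 0.999 each), and for Socs1 Ptpn12 and Psmd10 (0.999 each). Stat2 was followed by Tor3a and Rnf20 (0.998 and 0.995), Stat5a by St3gal1 and Cdyl2 (0.998 and 0.997), Stat5b by Ahnak2 and Bag3 (0.999 each) and Stat6 by Aggf1 and Bicral (0.999 each). Such values describe libraries that fall into 2 groups. For Socs3 alone, 932 of the 5336 genes reached an r of 0.95.

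Upstream of the STATs, the kinase genes split. Jak2, whose product serves many cytokine receptors including that for interferon-γ, was higher with vesicles. It was at 39.2, 35.4 and 37.9 FPKM in K7M2-EV libraries and 10.5, 10.0 and 10.4 FPKM in PBS libraries. Its groups were far apart, with a log2 fold change of 1.77 ± 0.06 (SE; limma, adjusted p = 4.13e-06). Jak1, Jak3 and Tyk2 had values of 0.08, 0.09 and -0.02 and were not called, although Jak1 was called after median-of-ratios scaling (0.22, adjusted p = 0.00882). Over 16 alternatives to the log2 fold change of Jak1 the adjusted p ranged from 0.00882 to 0.784. Within a library Jak2 was 1.24 ± 0.0701 times Jak1 with vesicles and 0.360 ± 0.0230 times Jak1 with PBS (SD, n = 3 each).

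Of the other SOCS family genes, Socs4 to Socs7, 0 rose and 3 fell, where 18.4% of all genes tested were higher and 35.6% lower. Socs6, a less studied family member linked to receptor tyrosine kinases, was at 1.36, 1.19 and 0.585 FPKM with vesicles and 3.73, 2.49 and 2.80 FPKM with PBS (log2 fold change -0.98 ± 0.18, SE; limma, adjusted p = 0.00445). Socs5 and Socs4 fell by 0.52 and 0.33 on the log2 scale (adjusted p = 0.00525 and 0.00165), while Socs7, at -0.12, was not called (adjusted p = 0.0964). With replicate 3 of both groups left out Socs5 was not called (adjusted p = 0.0543), in a range of 0.00353 to 0.0543. Of 6 genes for the ubiquitin ligase that the SOCS box recruits, 3 rose slightly, led by the elongin genes Eloc and Elob at 0.41 and 0.24. Without PBS replicate 1, PBS replicate 3 or K7M2-EV replicate 1 only 1 of these was called, and leaving out replicate 1 or 3 of both groups left 0.

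Other brakes on the pathway gave 5 higher and 3 lower of 13 (median log2 fold change 0.06, against -0.12 for all genes tested). Among all genes tested 18.4% were higher and 35.6% lower, so brakes were called lower no more often than genes at large. Usp18, which removes ISG15 and blocks the interferon receptor, was at 27.1, 28.4 and 24.3 FPKM with vesicles and 2.03, 2.31 and 1.78 FPKM with PBS. The phosphatase genes Ptpn6 (SHP-1) and Ptpn1 rose by 1.34 and 1.03 on the log2 scale. Pias2 and Pias1, members of a family that binds activated STATs, fell by 0.35 and 0.20. Among these brakes 0 were called lower with median-of-ratios factors and 0 without K7M2-EV replicate 3, and 1 or 2 without any other single library. The number called higher stayed at 5 without any single library.

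Of 25 cytokine ligand genes 19 had values and 9 passed the filter, of which 6 rose and 1 fell. The shares over all genes tested were 18.4% higher and 35.6% lower. Members that passed through a single group had to differ, so the ligand count is a description. Ebi3, a shared subunit of interleukin-27 and interleukin-35, was at 101, 80.0 and 101 FPKM with vesicles and 11.5, 9.41 and 10.9 FPKM with PBS. Il10, whose receptor acts through STAT3, was at 6.18, 3.99 and 5.36 FPKM with vesicles and 0.521, 0.465 and 0.386 FPKM with PBS. Il12a was at 3.48, 2.33 and 2.70 FPKM with vesicles and listed at 0 in all 3 PBS libraries. Il15 fell, with 0.892, 0.822 and 0.757 FPKM with vesicles and 2.13, 1.56 and 1.99 FPKM with PBS.

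Receptor chains moved both ways, with 10 higher and 8 lower of 23 tested (35 with values, median 0.20). Of all genes tested 18.4% were higher and 35.6% lower, and the share of chains called lower was near the latter. The count of chains too is a description, since Il23r reached 1 FPKM in no PBS library and Il12rb2 and Lifr in no K7M2-EV library. Il2rg, the common gamma chain gene, was at 37.3, 31.3 and 37.0 FPKM with vesicles and 9.21, 8.71 and 9.21 FPKM with PBS. Il4ra and Il21r rose by 1.77 and 1.62 on the log2 scale. The largest fall among the chains tested was that of Il7r, which pairs with the common gamma chain, by 3.30. Il6st, which encodes gp130, the chain that SOCS3 binds, was at 4.04, 5.36 and 4.87 FPKM with vesicles and 18.6, 18.8 and 19.1 FPKM with PBS. Il12rb2 fell by 1.40. Without K7M2-EV replicate 3 or PBS replicate 3, and without replicate 1 or 3 in both groups, 6 chains were called higher in place of 10.

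**Figure D4:**
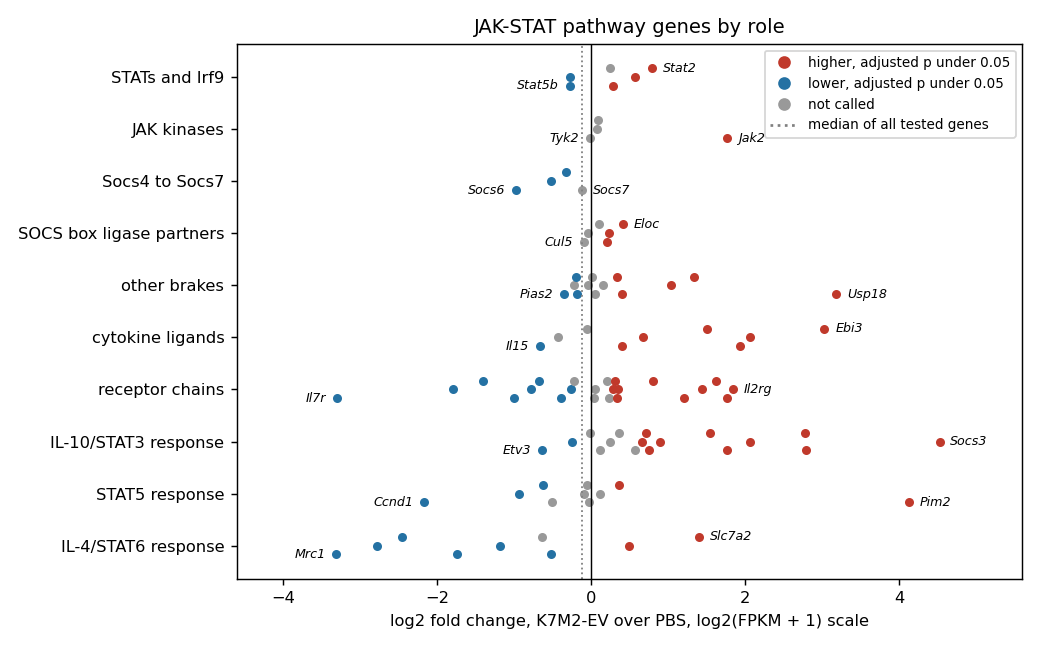
Log2 fold change (K7M2-EV over PBS, log2(FPKM + 1) scale) of each tested gene of the JAK-STAT pathway, by role. Red points are called higher, blue points called lower and grey points not called (limma, adjusted p under 0.05). The dotted line is the median of all genes tested, -0.12, and the outermost genes of each row are named. Jak2 stands apart from the other kinases, and 6 of the 9 points of the interleukin-4 and STAT6 row are called lower.

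Genes known to respond to each STAT are given by counts, beside 18.4% higher and 35.6% lower among all genes tested, and differences between the lists were not tested. Il10 and Pim2, which are on these lists, reached 1 FPKM in no PBS library and so had to be higher. Socs3, counted on the interleukin-10 and STAT3 list, passed the filter through its K7M2-EV libraries. The counts are therefore a description. Of 17 genes linked to interleukin-10 and STAT3, 10 were higher and 2 lower (median 0.72). Besides Socs3 itself, the transcription regulator genes Bcl3 and Cebpd rose by 2.78 each. Etv3, a repressor gene, was at 4.79, 4.72 and 4.81 FPKM with vesicles and 8.51, 7.42 and 8.11 FPKM with PBS (log2 fold change -0.64). The other fall was that of Mcl1, a survival gene, by 0.25, and its call was lost in 9 of 16 alternatives. Of 13 genes linked to STAT5, 10 were tested, 2 rose and 3 fell (median -0.08), shares near those of all genes tested. Pim2, a survival kinase gene, was at 27.0, 21.9 and 25.4 FPKM with vesicles and 0.338, 0.547 and 0.527 FPKM with PBS, unlike Cish and Socs2 of the same list. The cyclin gene Ccnd1 fell by 2.17 and Bcl2l1 by 0.63.

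Of 20 genes linked to interleukin-4 and STAT6, 19 had values and 9 passed the filter, of which 2 rose and 6 fell (median -1.18). Irf4 and Klf4, both among the 6, reached 1 FPKM in no K7M2-EV library and had to be lower, and the median is the value of Irf4, so the count is a description. Mrc1, the mannose receptor gene, was at 2.49, 4.83 and 3.44 FPKM with vesicles and 41.9, 48.3 and 40.9 FPKM with PBS. Pparg fell by 2.46 and the dendritic and B cell activation marker gene Cd83 by 2.78. Slc7a2, a cationic amino acid transporter gene, rose by 1.40 and Tgm2, a transglutaminase gene, by 0.49. These falls stood beside the rise of the receptor chain gene Il4ra and the small fall of Stat6. Beside them stood the lower T and B cell sums given above, carried by Cd28 and Ighm. Cd79b of the B cell list went the other way, with a mean of 1.06 ± 0.108 FPKM with vesicles and 0.561 ± 0.114 FPKM with PBS (SD, n = 3 each). The dendritic cell list (5 of 6) summed to 0.587 to 0.784 FPKM with vesicles and 0.120 to 0.285 FPKM with PBS. The vesicle sums were mostly Ccr7, with means of 0.457 FPKM with vesicles and 0.00790 FPKM with PBS. Zbtb46 alone had a lower mean with vesicles, at 0.103 FPKM against 0.152 FPKM with PBS, and its groups overlapped. No gene of the dendritic cell list passed the filter. The part of these cell types in these results was not tested.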

How the data were processed

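The authors deposited 1 table of FPKM per library with 26883 gene rows. Per the submitters' processing notes, the tools were edgeR, StringTie 1.3.4b, HISAT2 2.1.0 and CASAVA 1.8 and the build was GRCm38, with no roles or order. Per the labels' protocols, total RNA was taken with TRIzol and libraries were made with a NEB Ultra kit. Sample titles gave the groups and replicate numbers. The labels do not say what a replicate number shares, so p-values measure the spread between these libraries.

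A row without a value (1) and repeated symbols (47 rows, keeping the highest mean) were dropped. The 13009 genes that reached 1 FPKM in 3 libraries were fitted with limma 3.58.1 (R 4.3.3, statmod 1.5.0) on log2(FPKM + 1) without further scaling, using a robust empirical Bayes step with a mean-variance trend. Benjamini-Hochberg adjustment ran over all of them, and calls were made under 0.05. The log2(FPKM + 1) scale understates changes of low genes. Between 72.2% and 73.1% of values worth 20 reads or fewer came out whole within 0.1 reads, where chance gives 20%. This gave the implied read totals from GENCODE M21 exon lengths. Reads per gene are therefore approximate. The fit was tested on simulated data. Python 3.11.15 with pandas 2.3.3 and matplotlib 3.10.9 made tables and plots. Promoter letters came from RefSeq on GRCm38.p6, where 8 of 9 members matched.

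Members and lists were chosen with earlier results of these data known, and 1 gene of a response list is not reported here. Named genes were all members, all JAK genes, Socs4 to Socs7, Irf9, up to 3 largest called rises and falls per pathway list, and the 2 most similar genes per member. Marker genes of other cell types are given by list, and their examples were picked after values were seen. Deviations from the group mean correlated across genes between libraries of equal number (r 0.317, 0.294 and 0.209), and on this basis alone the numbers count as pairs. The alternatives were other pseudocounts, filters, scalings and variance settings, a replicate block and left-out libraries.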

Additional observations from a re-analysis of the deposited data

How the results depend on the processing

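Socs1, Socs3, Stat2, Stat3 and Stat5b kept their direction and their call in all 16 alternatives. A replicate block changed no call of a member: the log2 fold change of Socs3 had an adjusted p of 9.77e-05 and the log2 fold change of Stat5a one of 0.0148. Genes called over the whole table numbered 2395 higher and 4631 lower, against 3445 and 3376 after median-of-ratios scaling and 3107 and 3334 after quantile normalization. These scalings bring the median near 0 by construction.

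Members called lower numbered 2, and 1 after median-of-ratios scaling, where Stat6 was at -0.13. With a pseudocount of 0.1 the untested differences of Socs2 and Cish were -0.58 and -0.35, in place of -0.13 and -0.05, since a smaller pseudocount stretches low values. Leaving out 1 library or both of a replicate number gave 1529 to 2450 genes higher and 2844 to 4384 lower. The fewest genes were called without replicate 3 of both groups. Members called in these fits numbered 4 to 5 higher and 1 to 2 lower. Pathway genes numbered 30 to 45 higher and 18 to 26 lower, against 40 and 28 in the main fit, so all these fits called fewer lower. Over these fits Stat5a lay between 0.26 and 0.32 and Stat6 between -0.29 and -0.25. The log2 fold change of Tyk2, never called, ranged from -0.069 to 0.041 with 1 library left out and turned positive at 0.11 and 0.039 after median-of-ratios scaling and quantile normalization, 0.041 without K7M2-EV replicate 2 and 0.023 without PBS replicate 3. The log2 fold change of Pdlim2, called at -0.18, turned to 0.024 after quantile normalization (adjusted p = 0.774, in a range of 0.0298 to 0.774). The cause was not tested. Few reads lie behind Cish, and the small STAT changes rest on 3 libraries per group.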
